A study of Homo sapiens with 12 samples.

Results

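Eph receptors are receptor tyrosine kinases, and ephrins are their ligands, which are themselves anchored in the membrane of a neighbouring cell. Of these genes, 10 known from the guidance of spinal motor axons were described in depth and are called members here: the receptors EPHA3, EPHA4, EPHA5, EPHA7, EPHB1 and EPHB2 and the ligands EFNA3, EFNA5, EFNB1 and EFNB2. The members were taken by name from a table of 28278 gene symbols, and all 10 were found in it. A wider list of 22 Eph and ephrin genes served for comparison, of which 12 are not members.

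Binding of an ephrin activates the Eph kinase in the receptor-bearing cell, which is called forward signalling, and a signal can also pass back into the ephrin-bearing cell, which is called reverse signalling. Ephrin-A ligands are held by a lipid anchor and mainly bind EphA receptors, while ephrin-B ligands cross the membrane and mainly bind EphB receptors, with EPHA4 as a well known receptor for both classes. In the developing limb, EPHA4 steers lateral motor axons dorsally, away from ephrin-A in ventral tissue, and EPHB1 steers medial motor axons ventrally, away from ephrin-B in dorsal tissue. Motor axons also carry ephrins of their own, which act as receptors in reverse signalling and alter how the Eph receptors on the same axon respond.

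The cells were motor neuron cultures made from the human embryonic line WA09-Islet1-GFP, labelled wild-type, whose GFP reports Islet1, a transcription factor of motor neurons. Differentiated cultures were dissociated, plated, and exposed for 16 h either to the chlorinated pesticide cis-chlordane or to its solvent DMSO, then lifted with trypsin and sorted by FACS into GFP-positive and GFP-negative cells. This gave 4 groups of 3 libraries: control GFP-positive, treated GFP-positive, control GFP-negative and treated GFP-negative. All groups come from the same reporter line, so none of the comparisons covers a second genetic background. The labels give the dose as 10 uM, the methods give 16 uM, and titles of treated libraries, too, start with untreated, so the groups follow the treatment label. The replicates were independent thaws of frozen cells, and the 2 fractions with the same treatment and number are taken as sorts of 1 culture.

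Between 23414935 and 38347050 reads per library were assigned to genes. No library stood apart in depth, and 0 pairs of libraries held identical counts. The fractions matched their labels: over the control libraries ISL1 averaged 65.7 CPM (SD 3.13, n = 3) in the GFP-positive and 2.57 CPM (SD 0.204, n = 3) in the GFP-negative fraction. CPM is the count of a gene divided by the TMM-scaled total of its library, on the usual per-million scale, with TMM run over the 12 libraries. Of 8 motor neuron markers, 8 were higher in control GFP-positive than GFP-negative cells. LHX1, a defining factor of the lateral motor neurons that carry EPHA4 in the limb, had at most 3 counts in any GFP-positive library and was not tested.

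Sequences are shown for 3 members, as the stretch before a gene's start holds its promoter. EPHA7 fell most after treatment, EPHB1 was the member that rose, and EFNB1, like EPHA7, fell in both fractions. They are the RefSeq reference of GRCh38.p14, written 5′ to 3′ on the strand of the gene and ending at its start: chr6:93419688-93419809 for EPHA7 (minus strand, shortened to 122 bases so that it lies outside the annotated transcript), chr3:134795010-134795259 for EPHB1 (plus strand) and chrX:68828771-68829020 for EFNB1 (plus strand). Capitals mark the CCAAT box (CCAAT, or ATTGG when read from the other strand) and the GC box (GGGCGG, or CCGCCC).
EPHA7: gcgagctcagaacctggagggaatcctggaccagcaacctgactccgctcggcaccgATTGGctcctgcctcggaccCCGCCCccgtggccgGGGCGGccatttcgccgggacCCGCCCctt
EPHB1: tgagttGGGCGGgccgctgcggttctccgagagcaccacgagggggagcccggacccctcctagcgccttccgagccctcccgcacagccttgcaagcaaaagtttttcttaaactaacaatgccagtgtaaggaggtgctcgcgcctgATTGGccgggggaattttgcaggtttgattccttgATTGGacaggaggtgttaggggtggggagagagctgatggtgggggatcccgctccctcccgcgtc
EFNB1: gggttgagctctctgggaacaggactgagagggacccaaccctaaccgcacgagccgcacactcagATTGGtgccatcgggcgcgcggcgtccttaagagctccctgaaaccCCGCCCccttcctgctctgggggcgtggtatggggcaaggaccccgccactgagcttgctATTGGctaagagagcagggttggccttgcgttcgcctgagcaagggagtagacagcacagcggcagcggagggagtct
All 10 members had a RefSeq promoter entry. Among the 250 bases before the start, 4 of the 10 members (EPHA7, EPHB1, EFNB1 and EFNB2) held a CCAAT box on either strand, against 33.0% of 27305 promoters, and 9 held a GC box, against 42.3%. The letters TATAAA occurred in EFNB2 alone (11.1% of all promoters), the homeodomain core TAATTA in EPHA5 alone (4.49%) and CAGCTG, an E-box, in EPHA3 alone (13.8%). The ER stress element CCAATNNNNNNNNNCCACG, whose first letters are a CCAAT box, and the element TGATGNAA occurred in 0 of the 10 members, against 0.0806% and 3.19% of all promoters. GC content of the 250 bases was above the median of all promoters (58.0%) in every member but EPHA4 (43.2%), and reached 84.8% in EPHB2. The shares were not adjusted for GC content, which matters for a motif of G and C alone such as the GC box. These matches are letters in a window, and binding was not measured.

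In control GFP-positive cells the ligands EFNA3 and EFNB1 were the most abundant members. Compared per kilobase of transcript, so that genes of different length can be set side by side, EFNA3 came first at 54.6 ± 7.24 CPM per kb (SD, n = 3), before EFNB1 at 32.6 ± 2.31, EPHB2 at 23.7 ± 2.83 and EFNB2 at 16.3 ± 2.60. EPHA7 (7.31 ± 1.44), EFNA5 (6.46 ± 1.13) and EPHB1 (4.75 ± 0.749) followed, and their ranges overlapped from each to the next. EPHA3 (2.72 ± 0.50), EPHA4 (1.92 ± 0.201) and EPHA5 (0.507 ± 0.135) were lowest, and each was separate from the next. EPHB2 was thus the main Eph receptor among the members in these cells, and EPHA4 and EPHB1, the receptors known for the dorsal and ventral choice in the limb, were both at a low level. Outside the members, the receptor EPHB3 was at a level similar to that of EPHB2 (23.8 ± 3.88 CPM per kb).

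After treatment the order in GFP-positive cells changed mainly among the receptors. EFNA3 (29.6 ± 5.70 CPM per kb) and EFNB1 (11.2 ± 0.458) kept the first 2 places without overlap. EFNB2 (7.5 ± 0.824), EPHB2 (6.91 ± 1.31) and EPHB1 (6.20 ± 1.15) overlapped from each to the next, so that per kilobase EPHB2 no longer stood above EPHB1. EFNA5 (2.96 ± 0.520) came next, and EPHA7 (1.06 ± 0.209), EPHA4 (0.788 ± 0.337) and EPHA3 (0.640 ± 0.110) overlapped at the lower end above EPHA5 (0.0837 ± 0.0365).

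**Figure D1:**
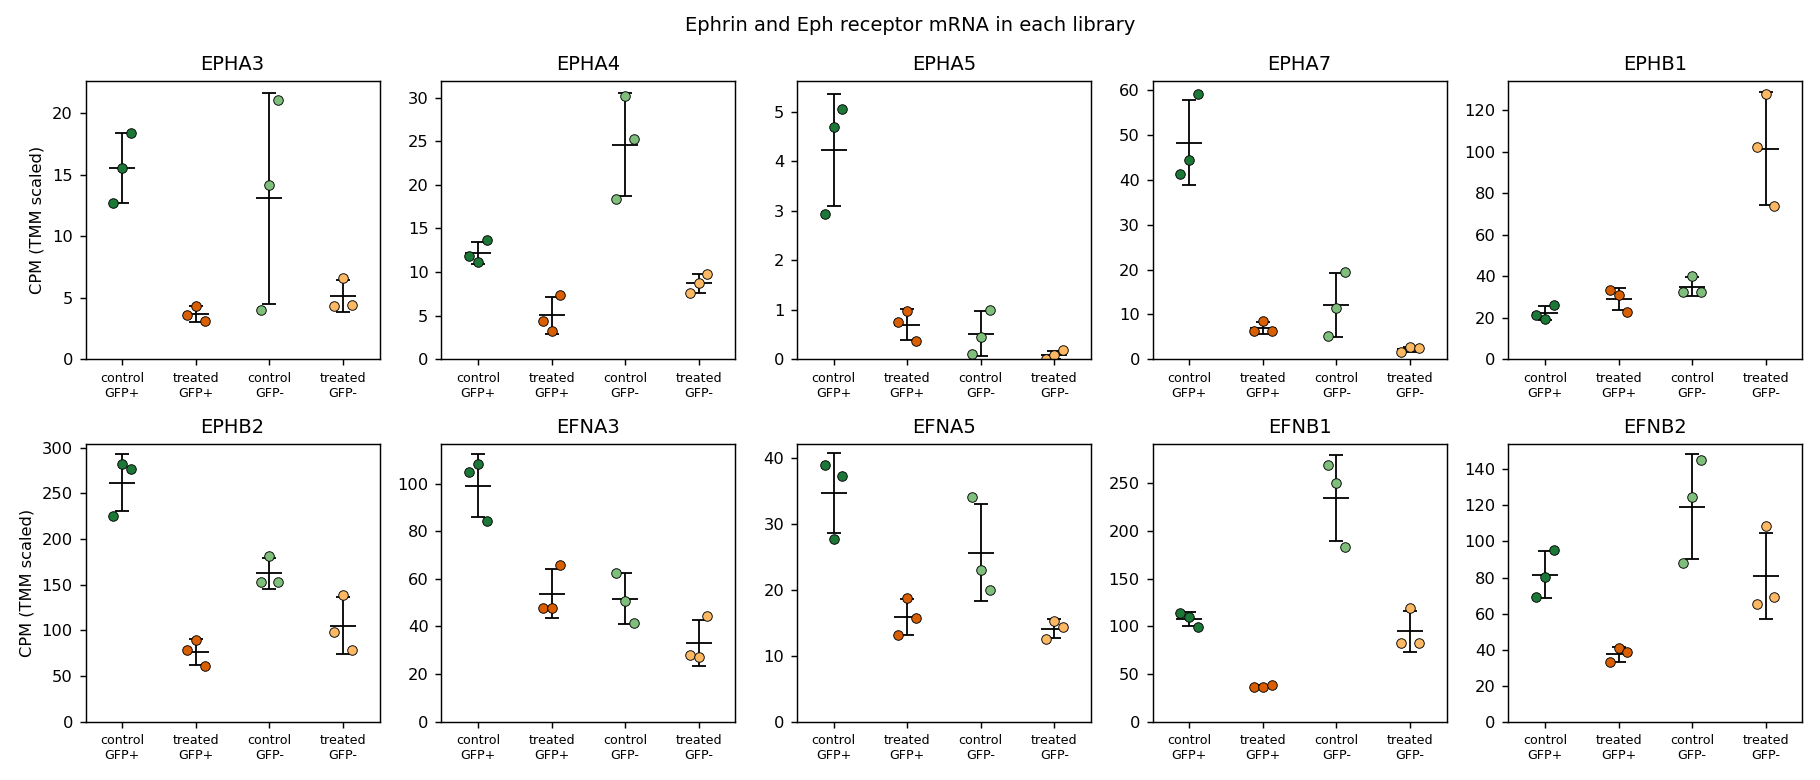
Level of each of the 10 ephrin and Eph genes in CPM (vertical axes, TMM scaled, each starting at 0) in the 12 libraries, grouped by treatment and GFP fraction; points are libraries, the long bar is the mean and the whiskers are the SD of 3 libraries. In GFP-positive cells the treated points lie below all control points for 9 of the 10 genes, and EPHB1 is the gene whose highest points are in treated GFP-negative cells.

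The first question was what cis-chlordane did to these genes in GFP-positive motor neurons. Treated and control libraries were compared with edgeR, and a gene was called when its change was at least 2-fold with a Benjamini-Hochberg adjusted p under 0.05 across all genes tested. Of the 10 members, 8 were called lower and 0 higher, where 11.2% of the 15333 genes tested were called lower and 12.8% higher. The median log2 change was -1.34 over the members and 0.03 over all genes. The groups did not overlap in 9 members, all lower after treatment, as was the case for 30.6% of all genes. In bulk RNA, fewer cells of a type and less RNA per cell cannot be told apart.

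Among the EphA receptors all 4 members fell. EPHA7, a receptor for ephrin-A ligands, had 41.4, 44.5 and 59.2 CPM in the control libraries and 6.15, 8.59 and 6.23 CPM in the treated libraries. The groups lay far apart, and the log2 change was -2.72 (SE 0.21, adjusted p = 3.3e-13, edgeR), a 6.60-fold lower level. EPHA5, also an ephrin-A receptor, had 2.95, 4.69 and 5.06 CPM in controls and 0.750, 0.974 and 0.371 CPM after treatment. No treated library reached the lowest control, and the log2 change was -2.54 (SE 0.35, adjusted p = 2.6e-07), on low counts throughout. EPHA3, which contributes to the guidance of axial motor axons, had 12.7, 15.5 and 18.4 CPM in controls and 3.57, 4.32 and 3.07 CPM in treated libraries. Its groups did not overlap, with a log2 change of -2.02 (SE 0.23, adjusted p = 2.8e-09). EPHA4 had 11.9, 11.2 and 13.6 CPM in controls and 4.41, 3.24 and 7.39 CPM in treated libraries. Treated replicate 3 was the highest of its group and still under all controls, and the log2 change was -1.21 (SE 0.24, adjusted p = 9.2e-05). Without treated GFP-positive replicate 2 the EPHA4 change was -0.99, just under 2-fold.

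The EphB receptors parted. EPHB2, a receptor for ephrin-B ligands, had 225.6, 281.9 and 277 CPM in controls and 78.1, 89.7 and 60.9 CPM in treated libraries. Every treated library was well under the lowest control, and the log2 change was -1.71 (SE 0.17, adjusted p = 2.1e-10), 3.28-fold lower. EPHB1 had 21.3, 19.2 and 26.1 CPM in controls and 33.2, 30.9 and 22.9 CPM in treated libraries. Treated replicate 3 lay between the controls, so the groups overlapped, and the log2 change of 0.45 (SE 0.19, 95% interval 0.08 to 0.83, adjusted p = 0.047) stayed under the 2-fold limit. Per kilobase, the ratio of EPHB1 to EPHB2 was 0.222, 0.161 and 0.222 in the control libraries and 1.00, 0.813 and 0.889 in the treated libraries. By this measure the receptor that was the minor of the pair in every control library was about level with the other after treatment. In CPM, without division by transcript length, EPHB1 stayed below EPHB2 in every treated library (22.9 to 33.2 against 60.9 to 89.7).

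Of the ligands, 3 of the 4 members were called lower. EFNB1, a transmembrane ephrin, had 114, 109.7 and 99.4 CPM in controls and 35.9, 36.5 and 38.8 CPM in treated libraries. The treated libraries were close together and far below the controls, with a log2 change of -1.47 (SE 0.17, adjusted p = 3.7e-09). EFNB2, the ephrin-B known from dorsal limb tissue, had 69.2, 80.3 and 95.1 CPM in controls and 32.9, 40.9 and 38.6 CPM in treated libraries. The groups did not overlap, and the log2 change was -1.05 (SE 0.17, adjusted p = 5e-06), close to the limit of 2-fold. EFNA5, the ephrin-A that repels EPHA4-bearing axons, had 39.0, 27.8 and 37.3 CPM in controls and 13.2, 18.8 and 15.7 CPM in treated libraries. All treated libraries were lower, with a log2 change of -1.06 (SE 0.20, adjusted p = 2.7e-05). EFNA3, a lipid-anchored ephrin, had 105, 108 and 84.1 CPM in controls and 47.7, 47.9 and 65.7 CPM in treated libraries. It was lower in every treated library, by -0.82 on the log2 scale (SE 0.17, adjusted p = 0.00019), under the 2-fold limit, and by -0.43 once the trend with GC content was removed. EFNA5 fell below the limit without control replicate 1 (-0.96) or treated replicate 1 (-0.95), and EFNB2 without control replicate 3 (-0.94) or treated replicate 1 (-0.98).

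**Figure D2:**
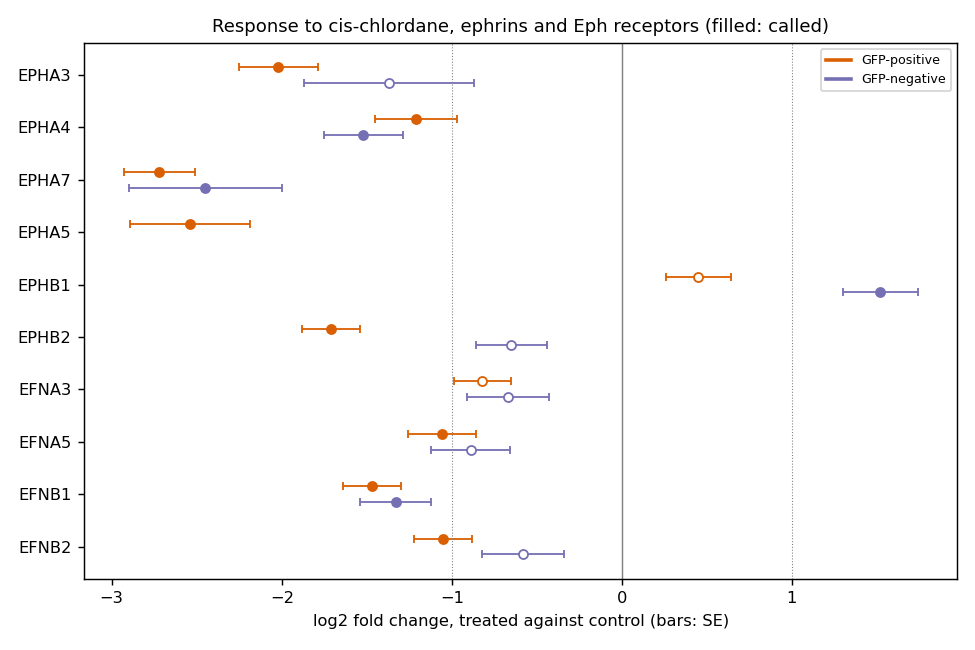
Log2 fold change of treated against control cells (horizontal axis) for the 10 ephrin and Eph genes, in GFP-positive cells (orange) and GFP-negative cells (purple); bars are the SE of the edgeR fit, filled points passed both limits, open points did not, and dotted lines mark 2-fold. In GFP-positive cells 8 genes are filled on the lower side, and in GFP-negative cells EPHB1 is the 1 filled gene on the higher side. EPHA5 was not tested in GFP-negative cells.

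Motor neuron markers moved with these genes. Of 8 markers, 7 were called lower in treated GFP-positive cells, and their summed level was 2273.2 to 2855.1 CPM in control and 768.1 to 1132.5 CPM in treated libraries. ISL1 fell by 2.38 on the log2 scale (SE 0.20, adjusted p = 6e-12, edgeR) and MNX1, a factor of somatic motor neurons, by 1.28 (SE 0.24, adjusted p = 3.2e-05), or by 0.71, under 2-fold, with the GC trend removed. ISL2, a motor neuron factor, changed by -0.77 (SE 0.24, adjusted p = 0.0084), under the 2-fold limit (-1.07 without treated replicate 3), and FOXP1, a factor of limb-innervating columns, by 0.54 (SE 0.21, adjusted p = 0.032). The 8 general neuron markers summed to 13908.3 to 17047.3 CPM in controls and 6834.8 to 8579.2 CPM after treatment, with 3 called lower. The 8 progenitor markers summed to 2878.3 to 3252.5 and 2356.4 to 3171.8 CPM, with 1 called higher, and 3 of the 6 cycling markers were called lower. Other lists moved as well. Summed mesenchyme markers lay between 245.4 and 308.4 CPM in control and between 49.0 and 78.6 CPM in treated libraries, and pluripotency markers, nearly all LIN28A, between 154.6 and 170.4 and between 49.2 and 60.7 CPM. Interneuron markers lay between 10.5 and 12.0 and between 0.821 and 2.35 CPM, and floor plate markers between 8.24 and 9.50 and between 1.71 and 2.36 CPM. Schwann or crest markers were higher after treatment, between 15.5 and 19.4 CPM in control and between 69.3 and 86.6 CPM in treated libraries, as were endothelial markers, between 1.91 and 3.04 and between 7.90 and 10.2 CPM. The part of these shifts in the Eph and ephrin changes was not tested. Sorting followed treatment and used the reporter of ISL1, which also fell in GFP-negative cells (-2.23, SE 0.36, adjusted p = 0.0015, edgeR). Whether the gate took the same kinds of cells in treated and control cultures was not tested. Every comparison that uses treated libraries shares this limit.

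In GFP-negative cells the same exposure gave fewer calls. Of 9 members tested, 3 were called lower and 1 higher, where 9.75% of 15513 genes were called lower and 8.59% higher. The median log2 change was -0.89 over the members and -0.01 over all genes. Treated libraries lay entirely below the controls in 5 members (22.6% of all genes) and entirely above in 1 (24.0%).

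EPHB1 was the member that rose. It had 32.3, 40.2 and 32.4 CPM in control GFP-negative cells and 102, 128 and 73.6 CPM in treated ones. Every treated library was above every control, with a log2 change of 1.52 (SE 0.22, adjusted p = 0.00091, edgeR), 2.86-fold higher. Its ratio to EPHB2 per kilobase was 0.497, 0.521 and 0.501 in the controls and 2.46, 2.17 and 2.21 in the treated libraries. Per kilobase, EPHB1 was thus the more abundant of the pair in every treated GFP-negative library. This order depends on the lengths used, 4674 bases for EPHB1 and 11035 for EPHB2, and isoform use was not measured. In CPM, EPHB2 was the higher in treated replicates 2 (139 against 128) and 3 (78.7 against 73.6). EPHB2 had 153, 182 and 153 CPM in controls and 98.1, 139 and 78.7 CPM after treatment. The groups did not overlap, and the log2 change of -0.65 (SE 0.21, adjusted p = 0.044) was under 2-fold.

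EPHA7, EPHA4 and EFNB1 were the members called lower in GFP-negative cells. EPHA7 had 5.22, 11.5 and 19.4 CPM in controls and 1.60, 2.69 and 2.37 CPM in treated libraries. All treated libraries were lower, with a log2 change of -2.45 (SE 0.45, adjusted p = 0.003, edgeR). EPHA4 had 18.4, 30.2 and 25.3 CPM in controls and 7.56, 8.73 and 9.81 CPM after treatment, a log2 change of -1.52 (SE 0.23, adjusted p = 0.0011). Its treated libraries were all under the lowest control. EFNB1 had 269.6, 250 and 183 CPM in controls and 82.3, 119 and 82.7 CPM in treated libraries, a log2 change of -1.33 (SE 0.21, adjusted p = 0.0015), again without overlap.

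The other members of this fraction did not meet both limits. EPHA3 had 3.98, 14.1 and 21.1 CPM in controls and 4.32, 6.62 and 4.43 CPM in treated libraries. Control GFP-negative replicate 1 lay below all treated libraries, and the log2 change was -1.37 (SE 0.50, adjusted p = 0.062, edgeR). Without that library it was -1.79 (adjusted p = 0.0012), and 5 members were then called lower, while without control GFP-negative replicate 3 it was -0.84. Control GFP-negative replicate 1 was also the lowest control for EPHA5 and EPHA7. EFNA5 had 34.0, 22.9 and 20.0 CPM in controls and 12.5, 15.3 and 14.4 CPM after treatment, with all treated libraries lower and a change of -0.89 (SE 0.23, adjusted p = 0.017), which was over 2-fold without control replicate 3 (-1.04) or without the GC trend (-1.06). EFNA3 (-0.67, SE 0.24, adjusted p = 0.057, and -0.42 without the GC trend) and EFNB2 (-0.58, SE 0.24, adjusted p = 0.1) overlapped between the groups. EPHA5 had too few counts to be tested here, with 3, 15 and 25 counts in controls and 0, 2 and 5 counts in treated libraries; a count of 0 in treated replicate 1 allows a level of up to 0.13 CPM, which covers counting error only.

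Cell-type markers shifted in this fraction as well. The 6 cycling markers were all called lower, with summed levels of 529.4 to 665 CPM in controls and 161 to 217 CPM after treatment. The 8 progenitor markers summed to 5947.7 to 7902.7 CPM in controls and 7243.4 to 8288.7 CPM after treatment, with 3 called lower and a median log2 change of -0.71. That sum was carried by VIM, with a mean of 3863.2 CPM in control and 6426.4 CPM in treated libraries, while NES had 2633.8 and 1118.9 CPM and SOX1 70.1 and 24.3 CPM. Of the motor neuron markers 5 of 8 were called lower, of the interneuron markers 5 of 7 tested and of the floor plate markers 4 of 4. Of the 5 endothelial markers 1 was called lower and 1 higher, with a median log2 change of -0.42. KDR had means of 9.42 and 101.7 CPM and PECAM1 of 6.29 and 0.618 CPM. The highest control library, with 457 PECAM1 counts, carried most of the PECAM1 control mean. Their part in the Eph and ephrin values was not tested.

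Whether a gene responded differently in the 2 fractions was tested by the interaction of treatment and fraction over the 12 libraries, called at an adjusted p under 0.05 with no minimum size. Of the 10 members, EPHB2 was called, where 1.22% of 16226 genes were called in that direction and 0.968% in the other. Its response in GFP-positive cells was lower than that in GFP-negative cells by 1.15 on the log2 scale (difference -1.15, SE 0.28, adjusted p = 0.045, edgeR). EPHB1 differed by the same amount (-1.15, SE 0.30, adjusted p = 0.058) without passing. With the culture as a replicate block, both were called: EPHB1 at -1.13 (SE 0.22, adjusted p = 0.0066) and EPHB2 at -1.13 (SE 0.17, adjusted p = 0.0017). EPHB2 lost its call with RLE scaling (adjusted p = 0.066), and also when any library was left out other than treated GFP-positive replicate 2 or treated GFP-negative replicate 3, with adjusted p of up to 0.21. The other 8 members had adjusted p of at least 0.38, with intervals that leave room for sizeable differences, such as -1.34 to 0.61 for EPHA7 and -0.72 to 0.25 for EFNB1.

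The second question was how GFP-positive and GFP-negative cells differ without the pesticide. In control cultures 2 of the 10 members were called lower and 2 higher in GFP-positive cells, where 15.3% of 15404 genes were called lower and 7.47% higher. The median log2 difference was 0.24 over the members and -0.02 over all genes. EPHA5 (2.96, SE 0.60, adjusted p = 0.0032, edgeR) and EPHA7 (1.90, SE 0.39, adjusted p = 0.0037) were the receptors higher in GFP-positive cells. EPHA7 had 41.4 to 59.2 CPM there and 5.22 to 19.4 CPM in GFP-negative cells, so its fractions did not overlap. EPHA4 (-1.12, SE 0.22, adjusted p = 0.0026) and EFNB1 (-1.22, SE 0.16, adjusted p = 0.00022) were lower in GFP-positive cells, also without overlap. EPHA4 was under 2-fold without control GFP-negative replicate 2 (-0.93), and both were under it with the GC trend removed and the culture as a block (EPHA4 -0.97, EFNB1 -0.90).

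Under 2-fold, EFNA3 (0.84, SE 0.18, adjusted p = 0.004) and EPHB2 (0.58, SE 0.15, adjusted p = 0.01) were higher in control GFP-positive cells, and EPHB1 (-0.76, SE 0.18, adjusted p = 0.0082) and EFNB2 (-0.66, SE 0.21, adjusted p = 0.029) were lower. EPHA3 (0.14, SE 0.46, 95% interval -0.77 to 1.05) and EFNA5 (0.33, SE 0.23, 95% interval -0.11 to 0.78) gave no difference that could be resolved. EPHA3 turned to -0.29 without control GFP-negative replicate 1. Per kilobase, EFNB1 led in control GFP-negative cells at 71.0 ± 13.7 CPM per kb (SD, n = 3), where EFNA3 was at 28.4 ± 5.83, while in GFP-positive cells EFNA3 led.

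In treated cultures 3 members were called lower and 2 higher in GFP-positive cells, where 13.7% of 15416 genes were called lower and 10.0% higher. EPHA5 (2.96, SE 0.70, adjusted p = 0.0039, edgeR) and EPHA7 (1.67, SE 0.27, adjusted p = 0.00029) were again higher. EPHB1 had the largest deficit of the members in GFP-positive cells, -1.79 (SE 0.22, adjusted p = 3.4e-05), with 22.9 to 33.2 CPM against 73.6 to 128 CPM. EFNB1 (-1.34, SE 0.18, adjusted p = 6.9e-05) and EFNB2 (-1.09, SE 0.21, adjusted p = 0.00086) were lower as well; without treated GFP-negative replicate 2 the EFNB2 difference was -0.81. EPHA4 (-0.77, SE 0.28, adjusted p = 0.039) and EFNA3 (0.73, SE 0.21, adjusted p = 0.012) were under 2-fold. EPHA4 was at -1.19 (adjusted p = 0.0029) without treated GFP-positive replicate 3, and with the GC trend removed and the culture as a block EFNA3 was at 1.12 here and 1.15 in control cultures, EFNB1 at -0.94 and EFNB2 at -0.92. EPHB2 stood at -0.45 (SE 0.22, adjusted p = 0.1), EPHA3 at -0.47 (SE 0.26, adjusted p = 0.16) and EFNA5 at 0.20 (SE 0.19, adjusted p = 0.42). These fits share libraries with the treatment comparisons.

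The fractions differ in cell types. In control cultures the 6 cycling markers and 6 of the 8 progenitor markers were called lower in GFP-positive cells, and 6 of the 8 general neuron markers were called higher. Interneuron (7 of 8), floor plate (4 of 4), mesenchyme (4 of 7), endothelial (4 of 5), Schwann or crest (1 of 5) and astroglial (1 of 5) markers were also called lower there. Summed mesenchyme markers still reached 245.4 to 308.4 CPM in control GFP-positive libraries, against 736.1 to 855.6 CPM in GFP-negative ones. Of 4 pluripotency markers 1 was called lower, and POU5F1 and NANOG were at 0 in all control libraries. How much of each Eph or ephrin difference follows the cell mixture was not tested.

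**Figure D3:**
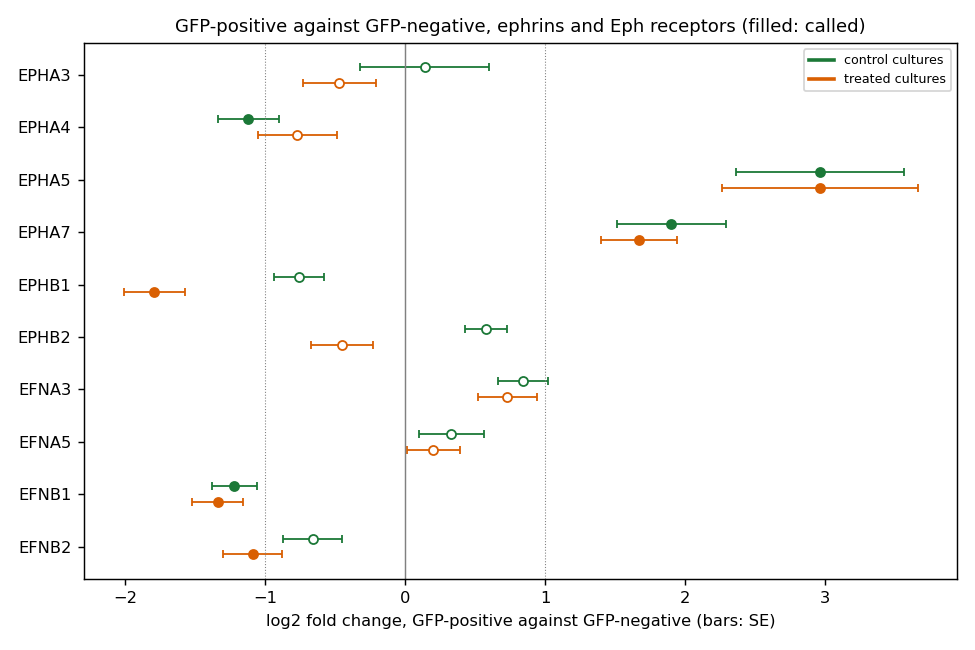
Log2 fold change of GFP-positive against GFP-negative cells (horizontal axis) for the 10 ephrin and Eph genes, in control cultures (green) and treated cultures (orange); bars are the SE of the edgeR fit, filled points passed both limits and dotted lines mark 2-fold. EPHA5 and EPHA7 lie to the right in both kinds of culture, EFNB1 lies to the left in both, and EPHB1 lies farther left in treated cultures.

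The 12 Eph and ephrin genes outside the members were read for context. In GFP-positive cells 10 of them were tested, and 6 were called lower and 0 higher, where 11.2% of all genes tested were called lower and 12.8% higher. They were EPHA8 (-2.10, SE 0.39), EPHA10 (-1.80, SE 0.20), EPHB3 (-1.02, SE 0.17), EPHB4 (-1.28, SE 0.25), EFNA2 (-1.44, SE 0.19) and EFNA4 (-1.49, SE 0.44), with adjusted p of 0.0051 or less in edgeR. EPHB3 was under 2-fold without control replicate 2 (-0.89) or treated replicate 3 (-0.96), and with the GC trend removed EPHB3 (-0.64) and EPHB4 (-0.90) were both under it. EPHB6 (-0.67, SE 0.24) and EFNB3 (-0.52, SE 0.17) were lower by less than 2-fold, and EFNA1 was unresolved (0.60, SE 0.45, adjusted p = 0.26). EPHA1 and EPHA6 had too few counts. Over the whole family 14 of 20 tested genes were called lower, against 11.2% of all genes tested.

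EPHA2 went the other way. It is an EphA receptor common in epithelial and progenitor cells, and its level was 4.03 ± 0.291 CPM per kb (SD, n = 3) in control and 6.0 ± 0.432 in treated GFP-positive cells, a log2 change of 0.64 (SE 0.19, adjusted p = 0.0046, edgeR). In GFP-negative cells it was at 29.7 ± 3.13 and 56.7 ± 8.44 CPM per kb, a log2 change of 0.91 (SE 0.17, adjusted p = 0.0031), with no overlap between the groups; it was under 2-fold, but over it without treated replicate 1 (1.02) or without the GC trend (1.13). EPHA2 thus held most of the EphA transcript in GFP-negative cells, and summed over 9 EphA genes the class had 40.0 ± 1.97 CPM per kb in control and 60.1 ± 8.77 in treated GFP-negative libraries, while the 4 EphA members summed to 8.04 ± 3.27 and 2.61 ± 0.388. In GFP-positive cells the 9 EphA genes summed to 23.3 ± 1.63 in control and 10.4 ± 0.620 in treated libraries.

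The other classes had lower summed levels per kilobase after treatment in both fractions. EphB receptors (5 genes) had 56.0 ± 5.25 CPM per kb in control and 26.2 ± 3.6 in treated GFP-positive libraries, ephrin-A ligands (5 genes) had 89.0 ± 8.45 and 42.7 ± 3.97, and ephrin-B ligands (3 genes) had 76.6 ± 3.32 and 37.1 ± 2.20. In GFP-negative cells EphB receptors had 69.1 ± 5.28 and 53.0 ± 9.99, ephrin-A ligands 57.7 ± 13.2 and 32.3 ± 5.34, and ephrin-B ligands 112 ± 11.4 and 55.9 ± 13.0. In each of these classes and fractions every treated library was under the lowest control. No test was run on these sums.

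**Figure D4:**
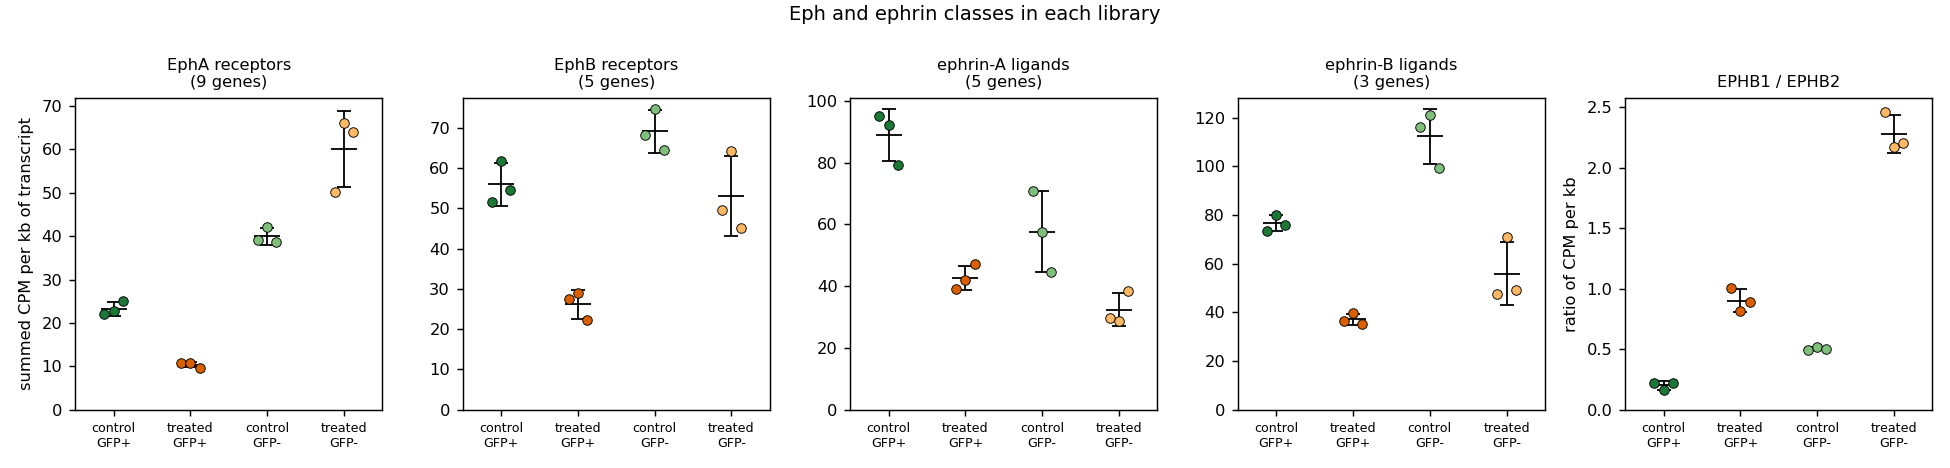
Summed level of the EphA, EphB, ephrin-A and ephrin-B genes (first 4 panels, CPM per kb of transcript) and the ratio of EPHB1 to EPHB2 per kb (last panel) in the 12 libraries, with mean and SD of 3 libraries. In GFP-positive cells all 4 classes are lower after treatment, in GFP-negative cells the EphA sum is higher, and the ratio is higher after treatment in both fractions.

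In GFP-negative cells 4 of the 12 other genes were called lower and 0 higher, where 9.75% of all genes tested were called lower and 8.59% higher. They were EPHA8 (-1.82, SE 0.53, adjusted p = 0.027, edgeR), EPHA10 (-1.54, SE 0.27, adjusted p = 0.0025), EPHB3 (-1.39, SE 0.17, adjusted p = 0.00036) and EFNA2 (-1.40, SE 0.25, adjusted p = 0.0025). EPHA8 lost its call without any of 4 libraries, control replicates 1 and 2 and treated replicates 1 and 2. EPHB4 (-0.78), EFNB3 (-0.70), EPHB6 (-0.68), EFNA4 (-0.78), EFNA1 (-0.60), EPHA1 (-0.30) and EPHA6 (0.74) did not meet both limits, though EFNA4 did without control replicate 3 (-1.05). Between the fractions of control cultures 10 were tested, and 4 were called lower and 1 higher in GFP-positive cells. Of all genes tested there, 15.3% were called lower and 7.47% higher. EPHB4 (-3.48, SE 0.17), EFNA4 (-3.33, SE 0.36), EPHA2 (-2.98, SE 0.16) and EFNA1 (-1.69, SE 0.40) were lower in GFP-positive cells and EPHA10 (1.71, SE 0.21) was higher, each with an adjusted p of 0.0071 or less in edgeR. EPHA8 (0.60), EPHB3 (-0.40), EPHB6 (0.29), EFNA2 (0.75) and EFNB3 (0.56) were not called there; EPHA8 was without control GFP-negative replicate 1 (1.05), and EFNA2 with the GC trend removed and the culture as a block (1.03).

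**Figure D5:**
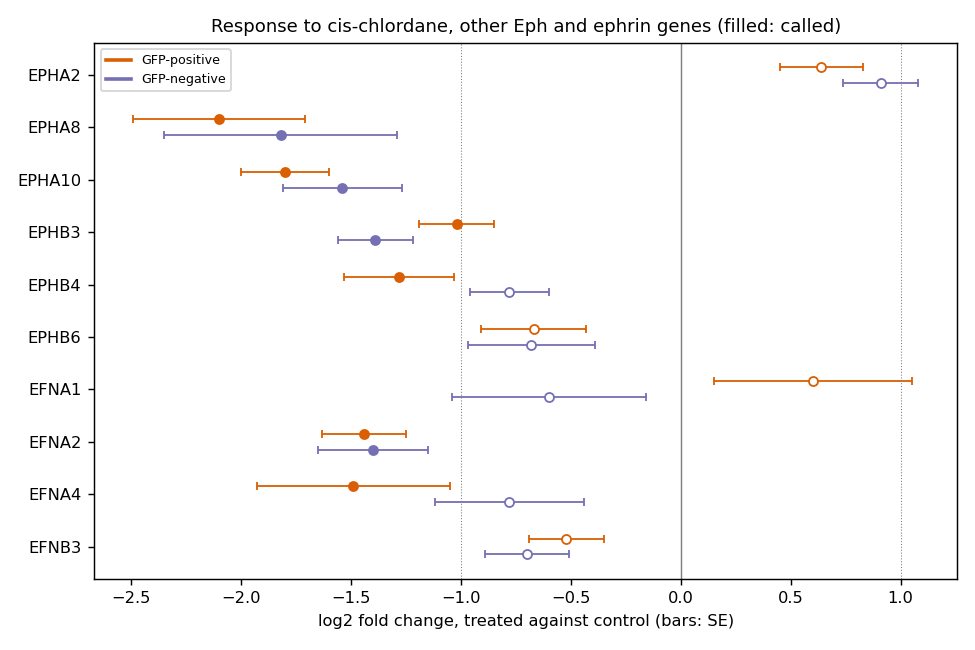
Log2 fold change of treated against control cells (horizontal axis) for 10 Eph and ephrin genes outside the 10 described in full, in GFP-positive cells (orange) and GFP-negative cells (purple); bars are the SE of the edgeR fit, filled points passed both limits and dotted lines mark 2-fold. EPHA2 lies to the right of 0 in both fractions, and the genes filled on the left are 6 in GFP-positive and 4 in GFP-negative cells.

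Position adds context for 2 groups of genes. On chromosome 1 of hg38, EFNA4 (155063737 to 155069553), EFNA3 (155078837 to 155087538) and EFNA1 (155127876 to 155134899) lie next to each other, and their responses in GFP-positive cells were -1.49, -0.82 and 0.60. EFNA3 shares 7971 bases with the read-through gene EFNA4-EFNA3 on the same strand, and EFNA4 shares 5806 bases with it. The read-through gene has no counts of its own here, so the counts of EFNA3 and EFNA4 are uncertain to that extent. EPHA8 (22563489 to 22603595) and EPHB2 (22710839 to 22921500) lie near each other on the same chromosome and were both lower. Whether other genes lie between them was not examined. EPHA5 overlaps EPHA5-AS1 by 535 bases on the other strand, and whether the counting used strand is not given in the sources used here.

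Genes that carry or limit Eph and ephrin signals were read from a list of 55, of which 54 were tested. In GFP-positive cells 7 were called lower and 5 higher, where 11.2% of all genes tested were called lower and 12.8% higher, and the median log2 change was 0.05. NEDD4, a ubiquitin ligase, averaged 6.77 ± 1.56 CPM in control and 79.4 ± 8.58 CPM in treated libraries (SD, n = 3), a log2 change of 3.62 (SE 0.20, adjusted p = 1.1e-16, edgeR). YES1, a Src family kinase, rose by 1.72 (SE 0.21) and PTPN13, a phosphatase that binds ephrin-B tails, by 1.36 (SE 0.19). NGFR, the neurotrophin receptor that partners ephrin-A in reverse signalling, fell from 1101.3 ± 132.5 to 299.9 ± 54.8 CPM, a log2 change of -1.81 (SE 0.17, adjusted p = 4.8e-11). RET, the receptor kinase that works with ephrin-A reverse signals in motor axons, fell by 1.70 (SE 0.18) and CDK5, a neuronal kinase acting downstream of EPHA4, by 1.43 (SE 0.19).

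NGEF and CHN1 link EPHA4 to the cytoskeleton, NGEF as the exchange factor ephexin and CHN1 as the Rac regulator alpha2-chimaerin. NGEF rose in GFP-positive cells from 9.74 ± 0.681 to 21.0 ± 0.933 CPM, a log2 change of 1.17 (SE 0.19, adjusted p = 5.3e-06, edgeR), and in GFP-negative cells from 13.3 ± 0.747 to 37.3 ± 1.09 CPM, a log2 change of 1.46 (SE 0.17, adjusted p = 0.00025). CHN1 went from 71.1 ± 10.2 to 88.1 ± 11.2 CPM in GFP-positive cells (0.38, SE 0.17, adjusted p = 0.059) and from 50.1 ± 6.11 to 66.5 ± 14.9 CPM in GFP-negative cells (0.39, SE 0.20, adjusted p = 0.17). Neither response passed the interaction test (NGEF -0.38, adjusted p = 0.39; CHN1 -0.10, adjusted p = 0.89). Between fractions NGEF was lower in GFP-positive cells by less than 2-fold (control -0.56, adjusted p = 0.035; treated -0.81, adjusted p = 0.0011), and CHN1 gave 0.40 (adjusted p = 0.075) and 0.42 (adjusted p = 0.077). The effector that rose therefore did so in both fractions in which its receptor EPHA4 fell.

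In GFP-negative cells 6 of the 54 signalling genes were called lower and 3 higher, where 9.75% of all genes tested were called lower and 8.59% higher. NEDD4 (2.42, SE 0.29), NGEF and YES1 (1.13, SE 0.26) were the 3 that rose. YES1 lost its call without control replicate 1 (0.91), treated replicate 1 (adjusted p = 0.053) or treated replicate 3 (adjusted p = 0.052) and with the GC trend removed (0.88). GFRA1, the GDNF co-receptor of RET, changed from 106.6 ± 4.60 to 43.2 ± 8.85 CPM (-1.32, SE 0.18, adjusted p = 0.00069, edgeR), ANKS1B by -1.30 (SE 0.27) and RET by -1.29 (SE 0.22). Without control GFP-negative replicate 3 the genes called higher were 9. Between the fractions of control cultures 3 were called lower and 2 higher, where 15.3% of all genes tested were called lower and 7.47% higher. RET (2.48, SE 0.16) and PTPRO, a phosphatase that acts on Eph receptors (1.59, SE 0.19), were higher in GFP-positive cells, and SIPA1L1, which binds EPHA4 (-2.02, SE 0.26), MMP2, a matrix protease (-1.66, SE 0.15), and YES1 (-1.01, SE 0.28) were lower. YES1 was close to 2-fold and lost its call with the culture as a replicate block (-0.94), without control GFP-negative replicate 3 (-0.64), without control GFP-positive replicate 1 (adjusted p = 0.058) or 2 (adjusted p = 0.077) and under most other settings. Without control GFP-negative replicate 1 the genes called lower were 5.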

How the data were processed

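RNA was prepared with a stranded mRNA kit. The authors joined the lanes, mapped 100 base single-end reads to hg38 with HISAT2, using the Ensembl release 103 annotation, and deposited whole-number counts per gene without normalization. Per the labels the counting tool was featureCounts, and its settings and the tool versions are not given in the sources used here. The members, gene lists and alternatives were chosen with earlier results of these data known. Of the per-sample columns 0 were unused.

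Counts were tested with edgeR 4.0.16 (R 4.3.3): TMM scaling, filterByExpr (minimum count 10, minimum total 15), the quasi-likelihood F-test, and Benjamini-Hochberg adjustment over all genes tested, with only the compared groups in a fit and all 12 libraries for the interaction. Calls needed an adjusted p under 0.05 and, except for the interaction, at least 2-fold. Each SE was derived from the log2 change and its F value, and the 95% intervals took a normal distribution with that SE. Such intervals are narrower than the F-test itself would give. With 3 libraries against 3, exact permutation of 1 gene's values cannot go below p = 0.1, so none is given. CPM values were scaled by TMM over the 12 libraries, and levels per kb used the Ensembl canonical transcript of GENCODE 44 in place of the authors' annotation (25482 symbols matched). Sorts of the same culture were taken to pair by number. Their deviations from group means correlated at 0.38, 0.12 and 0.33 in control and 0.20, 0.24 and 0.48 in treated cultures over 16226 genes. Sorts with unlike numbers gave -0.42 to 0.081 in control and -0.34 to 0.17 in treated cultures, so the margin was small for some pairs. The main tests did not use this pairing, which entered through the replicate block alone.

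The depth of 23414935 to 38347050 counts sets the precision, and 3 counts, or about 0.0795 to 0.13 CPM, was taken as the floor. Alternatives were DESeq2 1.42.0, scaling by RLE or by library size alone, testing all genes or only those with 10 counts in every library, the replicate block, a loess GC correction (span 0.5), glmTreat, all libraries in a fit, and each library left out. Simulated counts were scored in edgeR by an adjusted p under 0.05 alone, without the 2-fold limit. The genes changed in them were drawn from those with higher counts. For the GFP-positive comparison 60 of 100 genes changed 2-fold and 99 of 100 changed 4-fold passed, with 7 false passes among 15670 genes. For the interaction 20 and 91 of 100 passed, with 0 false passes among 15923. Recovery under the full rule with the 2-fold limit was not simulated. Named genes were all 22 Eph and ephrin genes, NGEF, CHN1, 5 motor neuron factors, up to 3 signalling genes per direction with the largest change (called, at least 1 CPM, no overlap between groups), and the 3 genes most like each member. Promoters came from RefSeq on GRCh38.p14.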

Additional observations from a re-analysis of the deposited data

Results flagged for a closer look

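EPHB2 was set apart because its response to cis-chlordane differed between GFP-positive and GFP-negative cells by the interaction test of edgeR, with a difference of -1.15 on the log2 scale (SE 0.28, adjusted p = 0.045). EPHB2 fell 3.28-fold in GFP-positive cells, where all 3 treated libraries lay below all 3 controls, and was 1.57-fold lower in GFP-negative cells, where they did as well. In controls its level was higher in GFP-positive cells (225.6 to 281.9 CPM) than in GFP-negative cells (153 to 182 CPM), and in treated cultures the ranges overlapped (60.9 to 89.7 and 78.7 to 139 CPM). The difference kept its sign in every setting tried, between -0.86 and -1.30 with a library left out.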

How the results depend on the processing

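In GFP-positive cells the 8 members called lower ranged from 6 to 8 with each library left out. EPHB1 and EFNA3 were never called there under any setting, and the other members kept their direction under all of them. A test against a 2-fold change (glmTreat) gave 5 members, 3 other Eph and ephrin genes and 3 signalling genes lower, and 2 signalling genes higher, and in GFP-negative cells 1 member lower, 0 members higher, and 0 other family and 0 signalling genes lower. Between fractions it gave 0 members lower and 1 higher in control cultures and 1 lower in treated cultures. In GFP-negative cells 5 members were called lower after removal of the GC trend, which also called 1 other family gene higher, and 5 with all 12 libraries in 1 fit.

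With each library left out, GFP-negative calls ranged from 3 to 5 for members lower, from 0 to 1 for other family genes higher and from 2 to 9 for signalling genes higher. In control cultures the ranges between fractions were 1 to 2 for members lower, 1 to 2 for other family genes higher and 2 to 5 for signalling genes lower. A filter of at least 10 counts in every library left 1 member called higher in control and 1 in treated cultures, since EPHA5 was no longer tested.

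The replicate block changed no call of a member except that 2 were called in the interaction, also 2 with the GC trend removed together with the block. Removing the GC trend with the block gave 0 members lower, 2 other family genes and 5 signalling genes higher between fractions of control cultures and 1 member lower in treated cultures; the median of all genes was then 0.168 in control cultures. Between treated and control libraries the numbers did not pair clearly. Correlations of deviations for like numbers ran from -0.039 to 0.20 in GFP-positive and -0.031 to 0.30 in GFP-negative cells. For unlike numbers they ran from -0.25 to 0.11 and from -0.23 to 0.15. The block left 8 members lower in GFP-positive and 3 in GFP-negative cells, while EPHA8 lost its call in GFP-negative cells (-1.74, adjusted p = 0.07, edgeR).

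For the interaction 2 members were called by DESeq2 and 2 without a filter, 0 with RLE scaling, 0 with scaling by library size alone, 0 with at least 10 counts in every library, and 0 to 2 with a library left out. Values near 0 changed sign: EPHA5 gave 0.0032 in DESeq2 and 0.17 by library size alone, EFNA3 0.025 and EFNB1 0.0066 by library size alone, and CHN1 0.13 by library size alone and 0.054 with at least 10 counts. With 1 library left out, interaction values ranged from -0.89 to 0.026 for EPHA7, -0.38 to 0.044 for EFNA3, -0.49 to 0.0061 for EFNA5, -1.0 to 1.0 for EPHA5, -0.011 to 0.46 for EPHA4 and -0.25 to 0.14 for CHN1. The response of EPHA1 in GFP-negative cells ranged from -0.64 to 0.19, and EPHA3 between fractions of control cultures from -0.29 to 0.70. Scaling by library size alone moved the median of all genes from 0.034 to 0.142 in GFP-positive cells and from -0.051 to 0.205 in the interaction. The causes were not tested. EPHA5 had at most 25 counts in any GFP-negative library.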

Other observations

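The genes whose CPM followed each member most closely over the 12 libraries were found by Pearson correlation of log2 values with 0.5 CPM added, among 13830 genes with a mean of at least 1 CPM. The libraries share cultures and fall into 4 groups, so the coefficients mainly describe differences between groups, and no test was run. EPHA7 was followed by SAMD5 (r = 0.995), ANOS1, the anosmin axon growth factor (0.992), and MARCKS, an actin-binding substrate of protein kinase C (0.987). EPHB1 was followed by BMP6, a bone morphogenetic protein (0.982), CDCP1 (0.974) and LINC00963 (0.971), and EPHB2 by ST3GAL2 (0.985), RHOB, a small GTPase (0.982), and SHB (0.975). For EFNB1 they were NACC1 (0.994), BCAR1, the Src substrate p130Cas (0.985), and CENPO (0.982). EPHA3 was closest to ST18 (0.982), SLC4A4 (0.962) and PCDHGC4 (0.942), EPHA4 to POU3F2, a neural POU factor (0.961), PODXL (0.960) and PCDH18 (0.958), and EPHA5 to SLC36A1 (0.976), KCND2, a potassium channel (0.975), and MANEAL (0.972). EFNA3 was closest to ZSCAN9 (0.976), KCTD2 (0.974) and GFOD2 (0.959), EFNA5 to HOTAIRM1 (0.965), ARHGAP22 (0.959) and LEMD1 (0.955), and EFNB2 to CEMIP2 (0.962), VCAN, the matrix proteoglycan versican (0.961), and LUZP1 (0.961).

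Among the members themselves, EPHA5 and EPHA7 had the most similar levels over the 12 libraries (r = 0.948), followed by EPHA4 and EFNB1 (0.910) and by EFNB1 and EFNB2 (0.893). EPHB1 ran opposite to EFNA3 (-0.877) and EPHA7 (-0.786).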
